A study of Mus musculus with 13 samples.

Results

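The 8 transcripts described here encode the subunits of AMP-activated protein kinase (AMPK) and the kinase LKB1: Prkaa1 and Prkaa2 (alpha), Prkab1 and Prkab2 (beta), Prkag1, Prkag2 and Prkag3 (gamma), and Stk11 (LKB1). They were chosen by name through their Entrez identifiers, with the higher level of Prkaa2 in old pancreas already known, and all 8 were found among the 23366 genes of the table. Because that choice used the comparison of old with young mice, differences with age are given as description without a test for every one of the 8, and Prkaa2 is given no test in any comparison. Pancreas RNA of 13 female mice of the reprogrammable strain i4F-B was sequenced after rRNA depletion, with 1 library per mouse. The mice were separate animals: 4 young (13 weeks), 5 old (55 weeks) and 4 old-OSKM. A transgene at Pparg, present in all 3 groups, lets doxycycline switch on Oct4, Sox2, Klf4 and Myc (OSKM) across tissues. Old-OSKM mice drank doxycycline in water with sucrose for 1 week, recovered for 2 weeks and are labelled 58 weeks old at sampling. Young and old mice received no doxycycline, and the methods do not say whether they were given sucrose. The drug, the sucrose, the factors the drug induced and the later sampling therefore cannot be told apart. As a limit of the strain, pancreatic cell types differ in how readily doxycycline switches the transgene on, which was seen for SOX2 protein in young animals soon after the drug, so whole-tissue values of treated mice may mix cells with and without induction.

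AMPK is a heterotrimer that senses cellular energy. The alpha subunit is the kinase, the beta subunit is a scaffold that also binds glycogen, and the gamma subunit binds AMP, ADP and ATP. AMPK is active when LKB1, working with its partners STRAD and MO25, or the calcium-dependent kinase CAMKK2 phosphorylates the activation loop of alpha; active AMPK slows lipid and protein synthesis and favours fatty acid oxidation, glucose uptake and autophagy. Much of this control acts on proteins by phosphorylation, which RNA sequencing does not measure.

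Promoters are printed for both alpha genes and for Prkag2. Prkaa2 and Prkag2 were the members whose old values lay above every young value, which 1.5% of all genes showed. Prkaa1 is the alpha gene whose values overlapped. Each sequence is the 250 bases before a RefSeq start in GRCm38.p6, 5′ to 3′ on the strand of the gene, and the capitals mark GC boxes (GGGCGG) and CCAAT boxes (CCAAT) found on either strand. Neighbouring matches can overlap, as the pair of GC boxes that begin 46 and 42 bases before the Prkaa1 start do. Prkaa2 lies at chr4:105109899-105110148 on the minus strand, Prkag2 at chr5:25100643-25100892 on the minus strand and Prkaa1 at chr15:5143611-5143860 on the plus strand.
Prkaa2: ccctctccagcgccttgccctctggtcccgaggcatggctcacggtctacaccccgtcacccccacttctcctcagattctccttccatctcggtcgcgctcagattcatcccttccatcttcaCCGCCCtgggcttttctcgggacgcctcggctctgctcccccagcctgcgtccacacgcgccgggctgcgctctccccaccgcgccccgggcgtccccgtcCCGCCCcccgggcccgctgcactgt
Prkag2: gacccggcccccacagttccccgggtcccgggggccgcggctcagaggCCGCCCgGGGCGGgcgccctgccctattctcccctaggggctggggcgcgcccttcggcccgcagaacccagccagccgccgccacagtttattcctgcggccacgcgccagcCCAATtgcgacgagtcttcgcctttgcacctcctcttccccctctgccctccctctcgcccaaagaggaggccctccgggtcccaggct
Prkaa1: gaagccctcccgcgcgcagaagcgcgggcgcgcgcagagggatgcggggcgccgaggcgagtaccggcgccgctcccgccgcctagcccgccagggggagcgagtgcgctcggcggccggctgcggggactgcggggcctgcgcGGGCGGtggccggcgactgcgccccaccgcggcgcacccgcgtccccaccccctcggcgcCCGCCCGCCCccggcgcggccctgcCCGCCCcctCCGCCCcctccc
None of these windows holds an exon in the GENCODE annotation. The Prkag2 window belongs to the most upstream of the 3 starts that the RefSeq promoter table lists for that gene, although the annotated span of the gene reaches further upstream, and a value per gene cannot say which start was used. The Prkaa2 window had a GC content of 70.0%, 24 CpG dinucleotides and 2 GC boxes, at 126 and 25 bases before the start. The Prkaa1 window had a GC content of 85.2%, higher than in 99.9% of all promoter windows, with 45 CpG dinucleotides and 5 GC boxes. The Prkag2 window held 2 GC boxes and 1 CCAAT box at a GC content of 73.2%. The Stk11 window, which is not printed, held 3 CCAAT boxes and no GC box. Of 32851 windows of this length, 32.7% held a GC box and 33.8% a CCAAT box. An E-box (CACGTG, in 6.02% of windows), a CRE (TGACGTCA, 1.55%), a TATA box (TATAAA, 12.4%) and a FoxO core (GTAAACA, 3.17%) were searched on both strands as well. None of these letters occurred in the windows of the 8 genes, the 3 Prkag2 windows included.

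Levels below are log2 RPKM, which scales reads by transcript length and by the mapped total, as deposited after quantile normalization. The methods of the study give 1 general figure for the reads of a sample, and the table holds no total per library, so the counts behind a value are not known. In whole tissue, fewer cells of a type and less RNA per cell cannot be told apart. Of 11 acinar markers, the 8 digestive enzyme genes were among the 11 highest values of the table in every mouse. Quantile normalization gives the top genes nearly the same value in each mouse (Amy2a5, the pancreatic amylase, was at 10.8 in all 13), so that the summed acinar RPKM, at 12378 to 12833, cannot show an admixture of other tissue. Liver markers stood out in the young mouse JCX1158, where 6 of them summed to 69.8 RPKM, compared with 3.25 to 4.50 in the other young, 4.68 to 7.64 in old and 4.16 to 6.03 in old-OSKM mice. Albumin (Alb) was at 5.36 log2 RPKM in JCX1158 and at -1.19 to 1.24 in the other mice, and the fibrinogen gene Fgb at 2.26 and at -3.70 to -0.13. The upper ends of these 2 ranges, 1.24 and -0.13, both belonged to the old mouse JCX1051. The remaining mice reached only 0.31 for Alb and -3.48 for Fgb. The old-OSKM mouse JCX1011 stood apart from the others: its median correlation with the other mice across genes was 0.895, compared with 0.960 to 0.982 for the other 12, and it lay at 41.4 on a first principal component on which they ranged from -8.63 to 13.3. Differences of old-OSKM mice for the 8 genes, and some counts of genes, are therefore also given without JCX1011. Differences from young mice are given without JCX1158 as well, and the part of liver RNA in the levels of the 8 genes was not tested.

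Among the 8 genes, Stk11 had the highest level and Prkag3 the lowest. The mean log2 RPKM over the 13 mice was 2.43 for Stk11, 1.41 for Prkaa2, 1.08 for Prkag1, 0.68 for Prkag2, 0.67 for Prkaa1, 0.50 for Prkab1, -1.52 for Prkab2 and -3.85 for Prkag3. Stk11 thus lay above 95.2% of all genes in the table and Prkag3 above 7.19%. Neighbours in this order kept their rank in most mice, with Prkaa2 above Prkag1 in 12 of 13 and Prkaa1 above Prkab1 in 11 of 13. Prkag2 and Prkaa1 could not be ordered, since Prkag2 was the higher in 7 of 13 mice and their difference was 0.01 ± 0.15 log2 units (SD, n = 13). Per length, Prkaa2 was thus the more abundant alpha transcript, Prkab1 the more abundant beta transcript and Prkag1 the more abundant gamma transcript of this tissue.

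**Figure D1:**
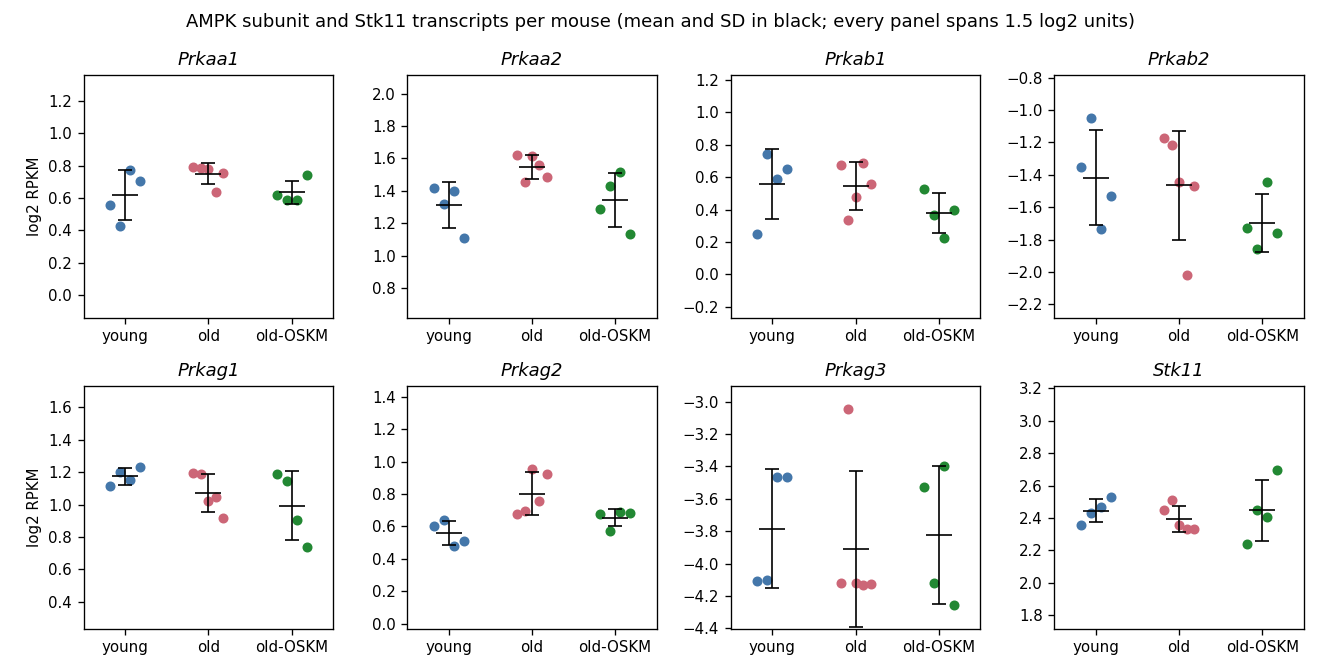
Level of each gene in every mouse, in log2 RPKM on the vertical axis, for young, old and old-OSKM mice; points are mice, and black marks give the mean and SD. All panels span the same 1.5 log2 units. The 5 old mice lie above the 4 young mice for Prkaa2 and Prkag2, as for 1.5% of all genes, while the groups overlap for the other genes.

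Prkaa2 encodes alpha2, 1 of the catalytic isoforms (Entrez 108079, chromosome 4 from 105029649 to 105109898 of GRCm38.p6, minus strand). Its log2 RPKM was 1.42, 1.32, 1.40 and 1.11 in the young mice JCX1155, JCX1163, JCX1158 and JCX1164. It was 1.62, 1.46, 1.62, 1.56 and 1.48 in the old mice JCX1000, JCX1001, JCX1002, JCX1051 and JCX1003. In the old-OSKM mice JCX1025, JCX1027, JXC384 and JCX1011 it was 1.29, 1.43, 1.52 and 1.13. Every old mouse was thus above every young mouse, although the highest young and the lowest old values were close, and the old-OSKM mice spread over both ranges. The old mean exceeded the young mean by 0.23 (standard error 0.09), a 1.18-fold difference. The old-OSKM mean was 0.20 below the old mean (standard error 0.09) and 0.03 above the young mean (standard error 0.09). Without mouse JCX1011, these differences were -0.13 and 0.10. Without JCX1158, the old and old-OSKM means were 0.26 and 0.06 above the young mean. Groups that do not overlap, with old above young, were found for 1.5% of all genes, and the pattern of Prkaa2 was what the choice of genes used.

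Prkaa1 encodes the other catalytic isoform, alpha1 (Entrez 105787, chromosome 15 from 5143861 to 5181899, plus strand). The same mice, in the same order, had 0.56, 0.43, 0.78 and 0.70 in the young, 0.79, 0.79, 0.78, 0.63 and 0.76 in the old, and 0.62, 0.59, 0.59 and 0.74 in the old-OSKM group. Of the 5 old mice, 4 lay above every old-OSKM mouse, with the young mouse JCX1158 among them. JCX1051 lay inside the ranges of both other groups. The old mean was 0.13 above the young mean (standard error 0.07), a difference that was 0.07 without the young mouse JCX1163, 0.19 without JCX1158 and 0.08 when 1 was added to each RPKM before the log. The old-OSKM mean was 0.12 below the old mean (95% confidence interval -0.27 to 0.04, limma adjusted p = 0.608), and without JCX1011 it was 0.15 below. Against young mice the difference was 0.02 (-0.15 to 0.18, adjusted p = 0.928), -0.02 without JCX1011 and 0.07 without JCX1158.

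The summed RPKM of both alpha transcripts was 4.03 ± 0.265 for young (SD, n = 4), 4.61 ± 0.170 for old (SD, n = 5) and 4.10 ± 0.225 for old-OSKM mice (SD, n = 4). The old mice ranged from 4.47 to 4.81, above all young (3.79 to 4.35, or 3.79 to 4.15 without JCX1158) and all old-OSKM mice (3.87 to 4.37, or 3.97 to 4.37 without JCX1011). Since Prkaa2 makes up most of this sum, the position of the sum above young mice follows from the choice of genes and was not tested. Its position above old-OSKM mice, where Prkaa2 alone overlapped, rests on the same old values that the choice used and was not tested either. The share of Prkaa2 in it was 61.8% ± 3.72 (SD, n = 4), 63.5% ± 1.61 (SD, n = 5) and 62.0% ± 3.90 (SD, n = 4), and these ranges overlapped.

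The beta transcripts showed no separation of the groups. Prkab1 (beta1, Entrez 19079, chromosome 5 from 116013586 to 116024503) ranged from 0.25 to 0.74 in young, 0.33 to 0.69 in old and 0.22 to 0.53 in old-OSKM mice. Its mean differed by -0.01 with age (standard error 0.11) and by -0.17 between old-OSKM and old mice (-0.40 to 0.07, adjusted p = 0.608), and by -0.18 from young to old-OSKM mice (adjusted p = 0.706). Prkab2 (beta2, Entrez 108097, chromosome 3 from 97658211 to 97673812) was weakly expressed, at -1.42 ± 0.29 for young (SD, n = 4), -1.46 ± 0.34 for old (SD, n = 5) and -1.70 ± 0.18 for old-OSKM mice (SD, n = 4). Old-OSKM mice differed from old mice by -0.23 (-0.63 to 0.16, adjusted p = 0.608), and from young mice by -0.28 (-0.70 to 0.14, adjusted p = 0.706). Without JCX1011 the differences of old-OSKM from old mice were -0.17 for Prkab1 and -0.21 for Prkab2, and those from young mice -0.18 and -0.26. Without JCX1158 the differences from young mice were -0.17 for Prkab1 and -0.39 for Prkab2 in old-OSKM mice, and 0.00 and -0.15 in old mice. Prkab2 moved with single mice, from -0.37 without JCX1051 to -0.16 without JCX1000 relative to old mice, and to -0.16 without JCX1163 relative to young mice. With a pseudocount of 1 these differences of Prkab2 were -0.06 and -0.07. The summed beta RPKM was 1.61 ± 0.0915 for old-OSKM (SD, n = 4), compared with 1.84 ± 0.132 for old (SD, n = 5) and 1.86 ± 0.240 for young mice (SD, n = 4).

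Among the gamma transcripts, Prkag2 (gamma2, Entrez 108099, chromosome 5 from 24862735 to 25106282, minus strand) was higher in old than in young mice. Its values, in the order of mice given for Prkaa2, were 0.60, 0.64, 0.48 and 0.51 in the young, 0.67, 0.69, 0.96, 0.76 and 0.93 in the old, and 0.68, 0.57, 0.69 and 0.68 in the old-OSKM group. All old mice lay above all young mice, as for 1.5% of all genes, and JCX1002 and JCX1003 carried the upper end of the old range. The old mean exceeded the young mean by 0.24 (standard error 0.07), a 1.18-fold difference. Old-OSKM mice lay 0.15 below old mice (-0.30 to 0.00), with an unadjusted p of 0.0521 and an adjusted p of 0.547 from limma, and 0.10 above young mice (-0.06 to 0.25, adjusted p = 0.706). Without JCX1011 the difference from old mice was -0.16 and that from young mice 0.09. Without JCX1158 the young mean was exceeded by 0.22 in old and by 0.07 in old-OSKM mice.

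Prkag1 (gamma1, Entrez 19082, chromosome 15 from 98812797 to 98831508) stood at 1.18 ± 0.05 for young (SD, n = 4), 1.07 ± 0.12 for old (SD, n = 5) and 0.99 ± 0.21 for old-OSKM mice (SD, n = 4). The old-OSKM values spread from 0.74 in JCX1011 to 1.19 in JCX1025. Old-OSKM mice differed from old mice by -0.08 (-0.28 to 0.12, adjusted p = 0.690), and without JCX1011 it was 0.01. Against young mice it was -0.18 (-0.40 to 0.03), the smallest unadjusted p of the 7 tested members in that comparison, at 0.0921 (adjusted p = 0.706). Without JCX1011 the latter difference was -0.10 (adjusted p = 0.935), and without JCX1158 it was -0.19 (adjusted p = 0.769). Prkag3 (gamma3, Entrez 241113, chromosome 1 from 74738922 to 74749471), the isoform of skeletal muscle, was near the bottom of the scale. In old mice it stood between -4.13 and -4.12 in 4 of 5, and at -3.05 in JCX1001, while the 4 young values fell on 2 levels, with -4.11 and -4.10 in 1 run of sample identifiers and -3.47 in both mice of the other run. The other groups did not follow the run. JCX1003, of the same run as the young mice at -3.47, was at -4.12, while JCX1001, JCX1025 (-3.53) and JXC384 (-3.39) were of the run with the lower young values. In 4598 genes with a mean below -1 the 5 old mice lay within 0.1 of each other, so such low and repeated values are not read as measured expression here. Such genes numbered 4438 in young but 426 in old-OSKM mice. The Prkag3 mean in old-OSKM mice was 0.08 above that of old mice (adjusted p = 0.888) and -0.04 relative to young mice (adjusted p = 0.957), and without JCX1011 these differences were 0.23 and 0.10. Without JCX1158 the difference from young mice was 0.07. The skeletal muscle markers were also low, with a summed RPKM of 1.00 to 1.48 for 7 genes.

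The share of Prkag2 in the sum of Prkag1 and Prkag2 was 39.5% ± 1.59 for young (SD, n = 4), 45.3% ± 4.13 for old (SD, n = 5) and 44.2% ± 4.18 for old-OSKM mice (SD, n = 4). The summed gamma RPKM, at 3.81 ± 0.10 (SD, n = 4), 3.93 ± 0.0959 (SD, n = 5) and 3.66 ± 0.272 (SD, n = 4), overlapped between the groups. To compare isoforms within a mouse, the log2 level of Prkag1 was subtracted from that of Prkag2, and this balance was 0.28 higher in old-OSKM than in young mice (two-sided exact permutation p = 0.114, adjusted p over 4 tests 0.457, smallest p possible 0.0286). Relative to old mice the old-OSKM balance was -0.07 (exact permutation p = 0.643). Without JCX1011 these differences were 0.18 (exact permutation p = 0.171) and -0.16 (exact permutation p = 0.339), and without JCX1158 the former was 0.26 (exact permutation p = 0.229). The balance of Prkab2 against Prkab1 was -0.06 in old-OSKM relative to old mice (exact permutation p = 0.825) and -0.10 relative to young mice (exact permutation p = 0.800), or -0.22 without JCX1158 (exact permutation p = 0.314). The smallest p that the splits of old-OSKM and old mice allow is 0.00794.

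**Figure D2:**
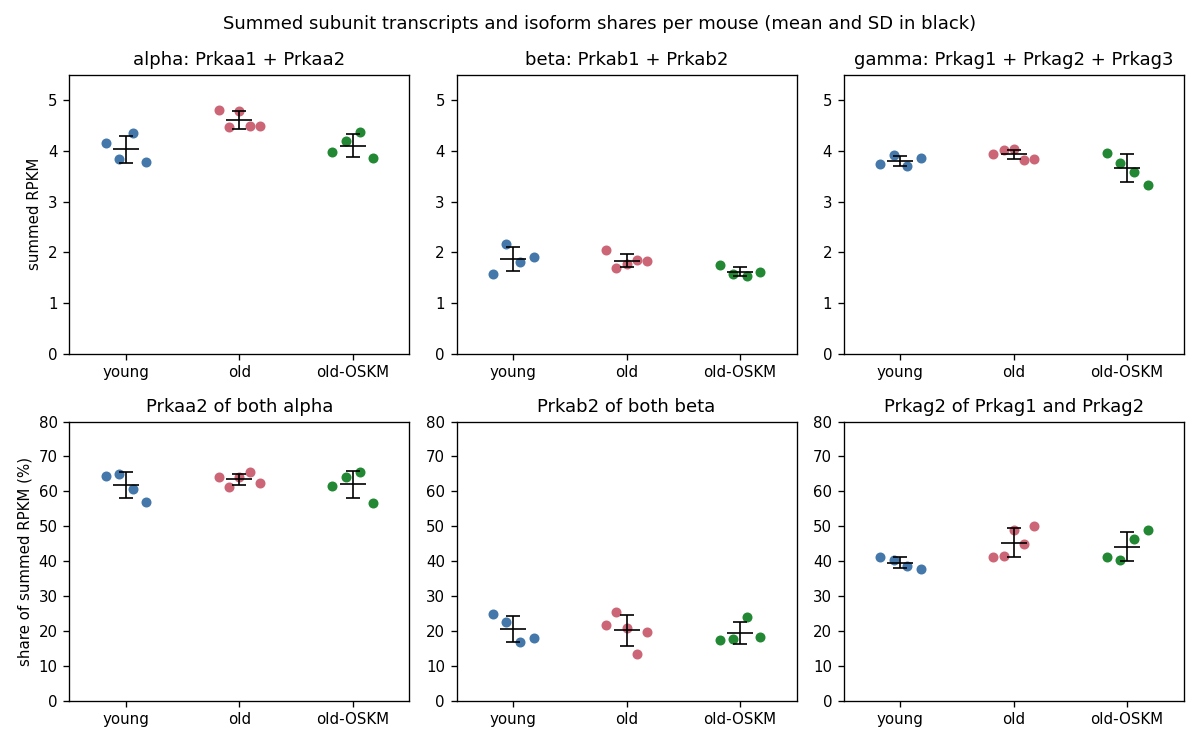
Summed RPKM of the alpha, beta and gamma transcripts (upper panels) and the percentage taken by Prkaa2 in the alpha sum, by Prkab2 in the beta sum and by Prkag2 in the sum of Prkag1 and Prkag2 (lower panels), for each mouse, with the mean and SD in black. The old mice lie at 4.47 to 4.81 for alpha, above the other groups, and the Prkag2 share is 37.7% to 41.2% in young and 41.1% to 50.1% in old mice. The choice of genes used the old values of Prkaa2, which makes up most of the alpha sum, so that position was not tested.

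Stk11 encodes LKB1, the upstream kinase (Entrez 20869, chromosome 10 from 80115767 to 80130679, plus strand). It was 2.36, 2.43, 2.47 and 2.53 in the young, 2.45, 2.51, 2.36, 2.33 and 2.33 in the old, and 2.24, 2.45, 2.40 and 2.70 in the old-OSKM mice. The 3 ranges overlapped, and both the lowest and the highest values belonged to old-OSKM mice, the highest to JCX1011. The mean differed by -0.05 with age (standard error 0.08; -0.02 without JCX1164 and -0.08 without JCX1155), by 0.05 between old-OSKM and old mice (-0.13 to 0.23, adjusted p = 0.755) and by 0.00 between old-OSKM and young mice (-0.19 to 0.19, adjusted p = 0.998). Without JCX1011 the comparisons with old and young mice gave -0.03 and -0.08. Without JCX1158 the differences from young mice were -0.04 in old and 0.01 in old-OSKM mice.

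None of the 7 members tested had an adjusted or an unadjusted limma p under 0.05 in either comparison of old-OSKM mice. Of all genes, 0.00428% passed the adjusted and 8.07% the unadjusted limit for old-OSKM against old mice, and 0.0428% and 5.07% for old-OSKM against young mice. Each comparison of old-OSKM mice shares a group with that of old against young mice, so differences of opposite sign for 1 gene are not independent. Exons of the antisense transcripts or genes Gm17651, B130046B21Rik, Prkag2os1, Prkag2os2 and Cbarp overlap exons of Prkab2, Prkag1, Prkag2 (both os transcripts) and Stk11, and because the library kit as named does not mark strand, their reads cannot be separated. Prkaa1, Prkaa2, Prkab1 and Prkag3 have no such overlap of exons.

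**Figure D3:**
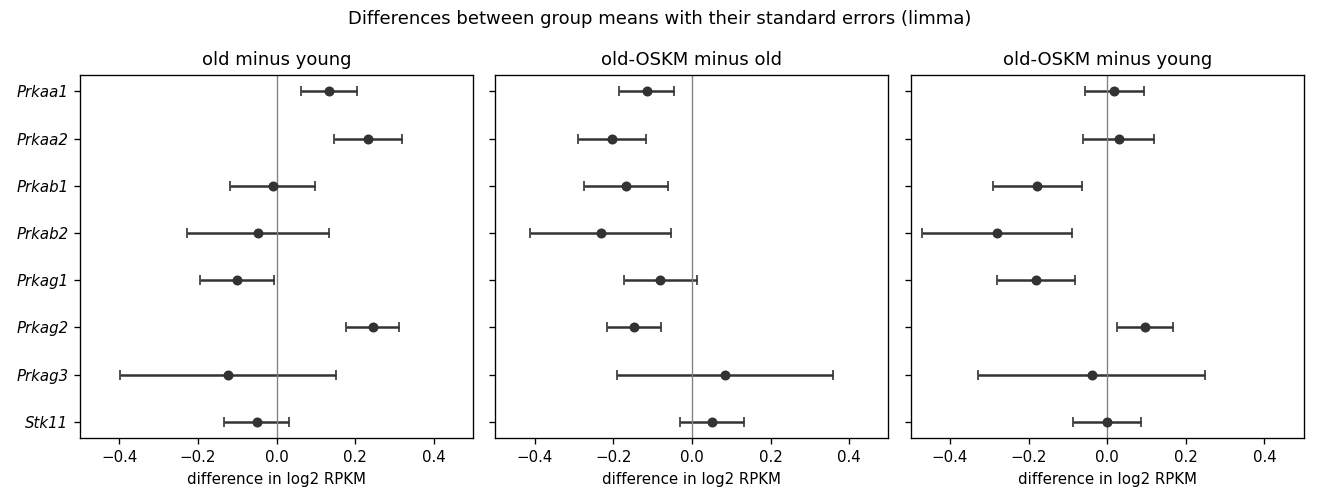
Differences between group means in log2 RPKM (horizontal axis) for the 8 genes, with bars of 1 standard error from limma, in 1 panel for each pair of groups. Prkaa2 and Prkag2 lie at 0.23 and 0.24 in the age comparison and at -0.20 and -0.15 in the comparison of old-OSKM with old mice, and Stk11 lies near 0 in all 3 panels.

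Markers of other cell types moved between the same groups. The marker lists were chosen with earlier results of these data known, so their counts are description. The summed RPKM of 6 fibroblast and stellate cell markers was 25.5 to 51.9 in young, 19.1 to 24.7 in old and 25.0 to 70.4 in old-OSKM mice, so that all old mice were below all others, the reverse of the order seen for the alpha sum. Of these 6 genes, 3 were lower with age at an unadjusted p under 0.05, and 4 were higher in old-OSKM than in old mice at the same limit, which 2.52% and 3.98% of all genes passed in these directions. Groups that do not overlap were found for 1.22% of all genes with old below young, and for 1.02% with old-OSKM above old. The collagen gene Col1a1 had a log2 RPKM of 1.37 to 2.64 in young, 0.90 to 1.27 in old and 1.42 to 2.39 in old-OSKM mice. T cell markers, 5 of 6 in the table, summed to 0.592 to 0.755 in young, 0.760 to 1.62 in old and 0.748 to 5.15 in old-OSKM mice, and none had an unadjusted p under 0.05 with age, while 3 were higher in old-OSKM than in young mice, as were 2.91% of all genes. B and plasma cell markers, 6 in all, summed to 0.911 to 2.54 in young, 2.36 to 7.88 in old and 3.54 to 12.1 in old-OSKM mice, and 3 of them were higher in old-OSKM than in young mice at that limit. Macrophage markers were higher in old-OSKM than in old mice at that limit for 5 of 6 genes (summed RPKM 12.8 to 33.7 against 9.02 to 14.7), and adipocyte markers for 4 of 6 (3.53 to 13.9 against 3.07 to 5.43). The table holds log2 values, and some of these markers lay among its repeated low values, such as Cd3g at -3.15 to -3.08 in young mice and Lep at -4.29 to -3.60. The sum of 8 islet beta cell markers was 131 to 271 in young, 149 to 347 in old and 67.6 to 429 in old-OSKM mice. JCX1011 alone held the upper end of the latter, since the other 3 old-OSKM mice lay at 67.6 to 142, below every old mouse, and so on the same side of old mice as for the alpha sum. Without JCX1011, 6 of these 8 genes rather than 1 were lower in old-OSKM than in old mice at an unadjusted p under 0.05, as were 3.35% of all genes. Markers of islet alpha and delta cells, 6 in all, summed to 17.1 to 40.2 in old and 12.9 to 67.7 in old-OSKM mice, or 12.9 to 21.7 without JCX1011. Sums of 7 duct and 6 endothelial markers overlapped between the groups in all 3 comparisons. Without JCX1011, 3 fibroblast and stellate, 2 macrophage and 1 adipocyte marker were higher in old-OSKM than in old mice at that limit, compared with 2.88% of all genes. Relative to young mice, 2 T cell and 3 B and plasma cell markers were then higher, beside 3% of all genes. Of the 8 islet beta cell markers, 3 rather than 0 were lower than in young mice, beside 2.82% of all genes. Without JCX1011 the old-OSKM sums reached 39.5 for fibroblast and stellate, 12.5 for adipocyte and 33.7 for macrophage markers, with the lowest values as before. Without JCX1158 the young sums were 28.4 to 51.9 for fibroblast and stellate and 0.911 to 1.51 for B and plasma cell markers. The part of these cells in the levels of the AMPK transcripts was not tested.

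The genes whose level across the 13 mice was most like that of Prkaa2, among 8396 genes with a mean log2 RPKM over 0, were Ror2 (Pearson r = 0.954), Rfx3 (0.954), Slc16a7 (0.928), Cyp3a13 (0.925) and Wipf2 (0.923). Ror2 is a receptor for Wnt ligands, Rfx3 a transcription factor of cilia genes, Slc16a7 a monocarboxylate transporter, Cyp3a13 a cytochrome P450 and Wipf2 a regulator of actin assembly. With any 1 mouse left out, r stayed at or above 0.935 for Ror2 and 0.892 for Cyp3a13. Ror2 had mean log2 RPKM of 0.03, 0.39 and 0.01 in young, old and old-OSKM mice, and Cyp3a13 had 0.48, 0.93 and 0.39. Among the other members, Prkag2 was the most like Prkaa2 (r = 0.517), followed by Prkaa1 (0.181), Prkag1 (0.028), Prkab1 (-0.061) and Stk11 (-0.503). Single mice moved these values, since r with Prkag1 was -0.536 without JCX1011 and r with Stk11 ranged from -0.731 to -0.227 with 1 mouse left out. The 5 genes most like Stk11 were Zfp101 (0.916), Vamp2 (0.915), Chkb (0.909), Fam193b (0.906) and Porcn (0.901), and without JCX1011 their r fell to between 0.802 and 0.828. These correlations share the mice, the normalization and the library that stood apart, and describe only this table.

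The remaining genes of the pathway were followed in 84 genes of 7 lists. These lists were chosen with earlier results of these data known. Their counts and p-values, with age above all, are therefore description and no test of the pathway. In old against young mice, 8 of the 84 (9.52%) were higher and 2 (2.38%) lower at an unadjusted limma p under 0.05, compared with 3% and 2.52% of all genes. In old-OSKM against old mice none was higher and 7 (8.33%) were lower, compared with 3.98% and 4.08% of all genes, and in old-OSKM against young mice none was higher and 3 (3.57%) were lower, compared with 2.91% and 2.16%. Against young mice this split changed without JCX1011 or without JCX1158, as given below. None of the 84 had an adjusted p under 0.05 in any of the 3 comparisons, and none passed a fold change over 1.5 with an unadjusted p under 0.01, which 0.886%, 0.753% and 0.625% of all genes did in the same order. Adjusted p under 0.05 were found for 0.0813%, 0.00428% and 0.0428% of all genes. The median difference of the 84 genes was 0.03 with age and -0.07 between old-OSKM and old mice, beside 0.00 and -0.04 for all genes. In the latter comparison 64 of the 84 differences were below 0, and 36.9% of all genes were above it.

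Among the 4 partners of LKB1, Cab39 (MO25 alpha) averaged 2.36 ± 0.04 for young (SD, n = 4), 2.46 ± 0.04 for old (SD, n = 5) and 2.33 ± 0.10 for old-OSKM mice (SD, n = 4), and the old mice lay above both other groups. At groups without overlap, which 1.5% of all genes showed in that direction, Cab39 was 0.11 higher in old than in young mice (limma unadjusted p = 0.0636, adjusted p = 0.946). From old to old-OSKM mice it differed by -0.13 (unadjusted p = 0.0235, adjusted p = 0.547), at groups that do not overlap, which 0.706% of all genes showed in that direction. The pseudokinases Strada and Stradb differed by -0.13 and -0.25, with adjusted p of 0.680 and 0.608. Without JCX1011 the differences were -0.09 for Cab39, -0.01 for Strada and -0.05 for Stradb. Of the 12 other activators, Camkk2, the calcium-dependent kinase of alpha, showed the same order as Cab39, at 0.76 ± 0.08 (SD, n = 4), 0.90 ± 0.03 (SD, n = 5) and 0.71 ± 0.06 (SD, n = 4). Camkk2 was 0.14 higher in old than in young mice (unadjusted p = 0.0117, adjusted p = 0.657) and 0.20 lower in old-OSKM than in old mice (unadjusted p = 0.00152, adjusted p = 0.547). Old values of Camkk2 did not overlap with either other group, although the highest young value (0.856) and the lowest old value (0.859) were close. Of all genes, 1.5% showed old above young without overlap and 0.706% old-OSKM below old. Its relative Camkk1 was weakly expressed and differed by 0.37 and -0.46 in the same comparisons, with adjusted p of 1.00 and 0.548.

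Inhibitors and regulators of AMPK turnover numbered 10, and 9 of their differences with age were above 0, compared with 54.4% of all genes. Between old-OSKM and old mice all 10 were below 0, and 36.9% of all genes were above it. Ppm1e, a phosphatase that removes the activating phosphate, was 0.54 higher in old mice (unadjusted p = 0.0105, adjusted p = 0.629), with a young range of -1.89 to -0.84 and an old range of -0.87 to -0.68 that overlapped. Wwp1, a ubiquitin ligase, was 0.13 higher (unadjusted p = 0.0287, adjusted p = 0.799). The phosphatase Ppm1a was 0.12 lower in old-OSKM than in old mice (unadjusted p = 0.0264, adjusted p = 0.547), and Crbn, which binds the alpha subunit, differed by -0.10 (adjusted p = 0.608), or by -0.06 without JCX1011.

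The AMPK-related kinases are further substrates of LKB1. Of 12, Sik2 and Nuak1 had an unadjusted p under 0.05 with age. Sik2 was 0.30 ± 0.05 for young (SD, n = 4) and 0.49 ± 0.07 for old mice (SD, n = 5), groups that did not overlap, as for 1.5% of all genes, with a difference of 0.19 (unadjusted p = 0.00545, adjusted p = 0.531). Old-OSKM mice, at 0.43 ± 0.10 (SD, n = 4), differed from old mice by -0.07 in Sik2 (adjusted p = 0.617). Nuak1 was 0.33 higher in old than in young mice and 0.34 lower in old-OSKM than in old mice (adjusted p = 0.691 and 0.547). Mark2 differed by -0.01 and -0.07, the latter -0.05 without JCX1011.

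Of 12 targets in lipid metabolism none had an unadjusted p under 0.05 in any comparison. Cpt1a, the mitochondrial importer of fatty acids, was 1.75 ± 0.24 for young (SD, n = 4), 1.51 ± 0.21 for old (SD, n = 5) and 1.67 ± 0.07 for old-OSKM mice (SD, n = 4), and Insig1, which retains the sterol sensor SCAP, was 2.92 ± 0.24 (SD, n = 4), 3.13 ± 0.15 (SD, n = 5) and 2.91 ± 0.11 (SD, n = 4). The muscle isoform Cpt1b was at -3.71 ± 0.50 for old mice (SD, n = 5), in the range of repeated low values. Of 15 targets in glucose metabolism, Crtc3, a coactivator of CREB, was 0.22 higher in old than in young mice (unadjusted p = 0.00813, adjusted p = 0.594) and 0.19 lower in old-OSKM than in old mice (unadjusted p = 0.0189, adjusted p = 0.547). Hnf4a, a transcription factor of liver and pancreas, differed by 0.30 and -0.27 (adjusted p = 0.856 and 0.552). Gys2, the liver glycogen synthase, was lower in old mice at an unadjusted p of 0.0475 and was named after its values were seen; the old mice ranged only from -4.09 to -4.06, and without JCX1158 the difference went from -0.59 to -0.24 (unadjusted p = 0.0882, adjusted p = 0.928).

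Among 19 targets in growth control, autophagy and mitochondria, Becn1, a subunit of the autophagy lipid kinase, was 0.11 lower in old than in young mice (unadjusted p = 0.0241, adjusted p = 0.771) and stood 0.01 higher in old-OSKM than in old mice. Ulk1, the kinase that starts autophagy, was 1.52 ± 0.11 for young (SD, n = 4), 1.53 ± 0.06 for old (SD, n = 5) and 1.34 ± 0.14 for old-OSKM mice (SD, n = 4). All old-OSKM mice were below all old mice in Ulk1, as for 0.706% of all genes, with a difference of -0.20 (unadjusted p = 0.0182, adjusted p = 0.547). Tsc1, an inhibitor of mTORC1, was 0.21 higher in old than in young mice (unadjusted p = 0.0496, adjusted p = 0.901). Ppargc1a, a coactivator of mitochondrial genes, was 0.34 lower in old-OSKM than in old mice (unadjusted p = 0.0395, adjusted p = 0.547). Without JCX1011, 12 of the 84 genes rather than 7 had an unadjusted p under 0.05 between old-OSKM and old mice, and 5 rather than 3 between old-OSKM and young mice. Of all genes, 2.88% were then higher and 3.35% lower than in old mice at that limit, and 3% and 2.82% relative to young mice. These shares are by direction, whereas the counts of 12 and 5 take both directions together. All 7 were among the 12, with differences from -0.09 for Cab39 to -0.42 for Ppargc1a, and Camkk2 differed by -0.17 (unadjusted p = 0.00305, adjusted p = 0.601). Relative to young mice, Sik2 was higher without JCX1011 (0.15, unadjusted p = 0.0347, adjusted p = 0.809). Without JCX1158, the young mouse high in liver markers, 9 genes rather than 10 had an unadjusted p under 0.05 with age, and 7 of them were shared. Hnf4a (a difference of 0.29, adjusted p = 0.920), Becn1 (-0.11, adjusted p = 0.823) and Gys2 (adjusted p = 0.928) no longer passed that limit. Camkk1 passed instead (0.53, unadjusted p = 0.0343, adjusted p = 0.740), as did Hdac7, a histone deacetylase that is named after its values were seen. Between old-OSKM and young mice the count was 2 rather than 3 without JCX1158, with 1 gene higher and 1 lower. Only 1 gene was shared, since Becn1 and Gys2 no longer passed. Ppm1e passed instead (0.47, unadjusted p = 0.0318, adjusted p = 0.769).

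**Figure D4:**
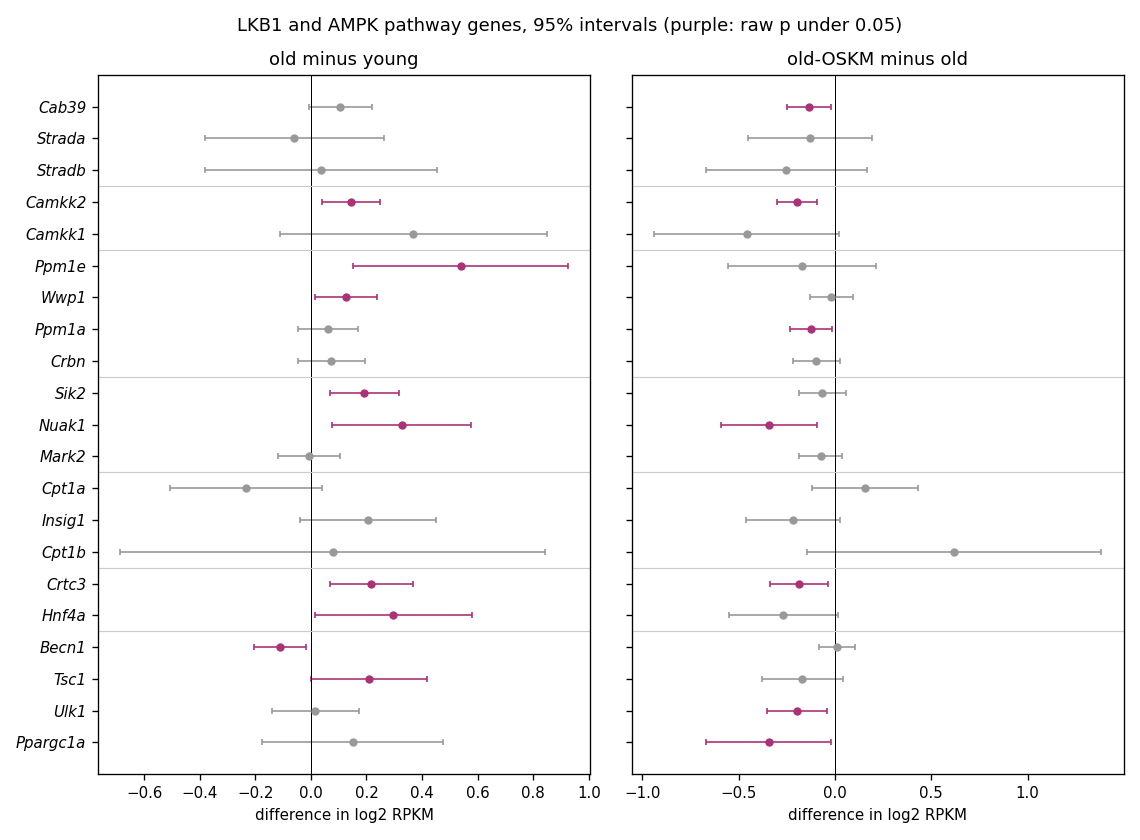
Differences in log2 RPKM (horizontal axis) with 95% confidence intervals from limma for the named pathway genes, in old minus young and old-OSKM minus old mice, with grey lines between the 7 lists and purple for an unadjusted p under 0.05. Camkk2, Nuak1 and Crtc3 are purple in both panels, at 0.14, 0.33 and 0.22 with age and at -0.20, -0.34 and -0.19 in the comparison that shares the old mice.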

How the data were processed

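Pancreas RNA of 13 mice was analysed as deposited. Per the labels and the study's methods, the authors aligned paired-end reads of rRNA-depleted RNA to mm10 with STAR 2.3.0e, estimated RPKM per isoform with Casper, added these up within each Entrez gene, and quantile normalized the log2 values. The deposited unit is therefore log2 RPKM. Sorted values of the mice differ by at most 0.0116. Neither counts nor the read total of a library are in the table, and the study's correction by total reads is not part of the values. All columns of values were mapped to mice (0 left over).

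Groups were taken from the labels. All 23366 genes were fitted together over the 3 groups in limma (version 3.58.1, under R 4.3.3, with lmFit and default eBayes, no covariate, no pseudocount, no filter), and p-values were adjusted by the Benjamini-Hochberg method over all genes. Genes counted as called passed a fold change over 1.5 and an unadjusted p under 0.01, the rule of the study. The fit was tested on simulated data. For isoform balance, exact permutation tests (two-sided) were run over mice. Summed values and shares used 2 to the power of the deposited values. Positions and promoters are from RefSeq for GRCm38.p6, the assembly of mm10 (all 8 members matched), and exons from GENCODE. Python 3.11.15 and matplotlib 3.10.9 drew the figures.

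The members, the 7 pathway lists and the 12 marker lists were chosen with earlier results of these data known. Named pathway genes are the 2 with the smallest p in each list, with age and between old-OSKM and old mice, plus any called gene. Named marker genes were chosen after the values were seen. Alternatives were a repeated quantile normalization, centring on each mouse's median, pseudocounts of 1 and 0.1, only genes with a mean over 0, only the 2 groups compared, the run of sample identifiers (609 to 621 against 641 to 643) as a term, eBayes with trend and robust settings, and each mouse left out in turn.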

Additional observations from a re-analysis of the deposited data

Results flagged for a closer look

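Each of the 8 genes was screened in each of the 3 groups, 24 groups of values in all, for a mouse far from the rest of its group. Of these, 3 were marked, and chance marks about 1 in 20 such groups. Prkaa1 in the old mouse JCX1051 was 0.634 log2 RPKM, compared with 0.757 to 0.793 in the other old mice. Prkag2 in the old-OSKM mouse JCX1027 was 0.572, compared with 0.678 to 0.687 in the other old-OSKM mice. Prkag3 in the old mouse JCX1001 was -3.05, compared with -4.13 to -4.12 in the other old mice, which are among the nearly constant low values of the table.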

How the results depend on the processing

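Over the 21 alternatives the difference of Prkaa2 ranged from 0.17 to 0.27 with age and from -0.26 to -0.13 between old-OSKM and old mice. That of Prkag2 ranged from 0.15 to 0.28 and from -0.18 to -0.09. These ranges are description only, since the choice of genes used the level of Prkaa2 with age. Some alternatives cannot change a difference of means, such as leaving out a mouse of the group not compared. No tested member passed an adjusted p of 0.05 under any alternative, with adjusted limma p from 0.300 to 1.00. Prkab2 and Prkag3 have no value with the filter on a mean over 0. The counts of all genes called were 16, 2 and 8 with a pseudocount of 1 (age, old-OSKM against old, old-OSKM against young), 116, 77 and 76 with 0.1, and 44, 35 and 19 with that filter. With 1 mouse left out they ranged over 175 to 280, 94 to 338 and 121 to 253. The second count was 94 without JCX1025, 338 without JCX1027 and 284 without JXC384, and the third was 253 without JCX1027.

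Pathway genes with an unadjusted p under 0.05 numbered 5 to 14 with age (5 without JCX1002, 6 without JCX1164), 4 to 15 for old-OSKM against old mice (15 without JXC384, 12 without JCX1011, 4 without JCX1000) and 1 to 6 for old-OSKM against young mice with 1 mouse left out (6 without JCX1155, 5 without JCX1027 or JCX1011, 1 without JCX1000, JCX1001, JCX1051 or JCX1003). The latter count was 5 with a pseudocount of 1, 1 with the filter, 0 with only the 2 groups compared and 1 with the identifier run as a term. The count with age was 15 with only the 2 groups compared and 7 with the filter.

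Small differences turned sign when 1 mouse was left out. The ranges were -0.0444 to 0.0713 for Prkaa1, -0.183 to 0.104 for Prkag3 and -0.0827 to 0.0702 for Stk11 between old-OSKM and young mice, and -0.145 to 0.00548 for Prkag1, -0.0589 to 0.300 for Prkag3 and -0.0322 to 0.121 for Stk11 between old-OSKM and old mice. Of the untested differences, those of Prkab1 and Prkab2 with age ranged from -0.112 to 0.0520 and -0.154 to 0.0910, and that of Prkaa2 between old-OSKM and young mice from -0.0383 to 0.0986. With the identifier run as a term the differences between old-OSKM and young mice were 0.0777 for Prkag3, 0.0885 for Prkaa1, -0.401 for Prkab2 and -0.0199 for Prkaa2. With a pseudocount of 1, those between old-OSKM and old mice were -0.0711 for Prkaa1 and -0.0977 for Prkab1. Further ranges with 1 mouse left out were -0.340 to -0.0178 for Prkag3 and -0.131 to -0.0617 for Prkag1 with age, -0.221 to -0.116 for Prkab1 between old-OSKM and old mice, and -0.280 to -0.116 for Prkab1 and -0.245 to -0.0952 for Prkag1 between old-OSKM and young mice. The balance of Prkab2 against Prkab1 was 0.0351 and 0.0310 (old-OSKM against old and against young) with a pseudocount of 1, and -0.238 to 0.0510 and -0.238 to 0.0222 with 1 mouse left out, and that against young mice was -0.381 within the identifiers 609 to 621 (exact permutation p = 0.267). That of Prkag2 against Prkag1 between old-OSKM and old mice was 0.00253 within the identifiers 609 to 621 and -0.162 to 0.0109 with 1 mouse left out. Between old-OSKM and young mice it was 0.183 to 0.356, the latter without JCX1027 (exact permutation p = 0.0286). The cause of these shifts was not tested. No paired analysis was possible because the labels give no replicate numbers that the groups share. The number of mice, at 4 or 5 a group, and the lack of counts per library limit what differences of this size can show.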
